A study of Mus musculus with 8 samples.

Results

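Glucose uptake, glycolysis, lactate export and the response to low oxygen were followed through 45 named genes in embryonic mouse kidneys that had lost Grb2 from the ureteric bud, and in control kidneys. The 45 genes were listed by name, not by a threshold on their values. Of these, 39 had a probe set naming 1 gene on the array, out of 22180 genes measured that way. Aldoa, Bnip3l and Ankrd37 were covered by probe sets that named a second gene as well, and Gpi1, Eno1 and Pfkfb1 were not analysed here either. Kidneys were taken at E14.5 (age in days of embryonic development) from 4 embryos labelled Grb2 UB-cKO, a knockout restricted to the ureteric epithelium, and from 4 labelled wild-type control, all of 1 litter. Both kidneys of an embryo were pooled, so each array stands for 1 animal, and the RNA came from every cell type of the organ while the deletion touched only the epithelium. Values are log2 probe-set signals on 1-colour arrays. The labels name no Cre line.

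Glycolysis splits glucose into pyruvate in the cytosol. Hexokinase, phosphofructokinase and pyruvate kinase catalyse its controlled steps, and lactate dehydrogenase turns pyruvate into lactate, which leaves the cell through monocarboxylate transporters. Hypoxia-inducible factors (HIF) are pairs of an oxygen-sensitive alpha subunit and the partner ARNT. With oxygen, prolyl hydroxylases mark the alpha subunit for destruction, and without it the factor switches on glycolytic genes and others such as Vegfa, so HIF activity is set largely at the protein level, which arrays do not measure. In the embryonic kidney, nephron progenitors are known for strong glycolysis, and HIF-2 alpha, the product of Epas1, is known from endothelial and interstitial cells.

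Array medians were 6.61 to 6.72, and the number of arrays limits the precision. Grb2, the targeted gene, was 8.61 to 8.68 in the controls and 8.06 to 8.36 in Grb2 UB-cKO (log2 fold change -0.45, standard error (SE) 0.07, limma adjusted p = 0.0017). Whether its probe set lies within the deleted part was not tested. The labelled tissue carried its markers: the mean log2 level of 10 nephron progenitor genes was 10.2 to 10.4 in the controls, and that of 7 neuron and glia genes was 6.58 to 6.91. Sex-linked genes separated the embryos too. Averaged over 3 Y-linked genes, all 4 Grb2 UB-cKO embryos lay at 9.94 to 10.1 and control replicate 3 at 9.94, whereas the other 3 controls lay at 4.09 to 4.24. Among the 39 genes, Pgk1 and Pdk3 lie on the X chromosome. A second model therefore carried the Y-linked mean as a covariate. In it 5.62% of all genes passed, and its fold changes rest on control replicate 3, since no other control had high values of these genes.

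Loss of Grb2 from the ureteric bud went with changes in both directions in this pathway. Of the 39 genes, 17 passed the threshold of 0.05 on limma's adjusted p over all genes (43.6%, against 28.1% of all 22180 genes). Lower were 10 of 39, against 14.3% of all genes, and higher were 7 of 39, against 13.7%. Knockout and control ranges were separate for 18 of the 39, the 17 called genes and P4ha2, against 31.2% of all genes. In whole kidneys, a change in RNA per cell and a change in the number of cells that carry the RNA cannot be told apart. The median log2 fold change was -0.00365 over the 39 genes and 0.0058 over all genes. The enzymes of glycolysis lay mostly below 0 and the other HIF targets were spread around it, as the plot of fold changes by role shows.

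**Figure D1:**
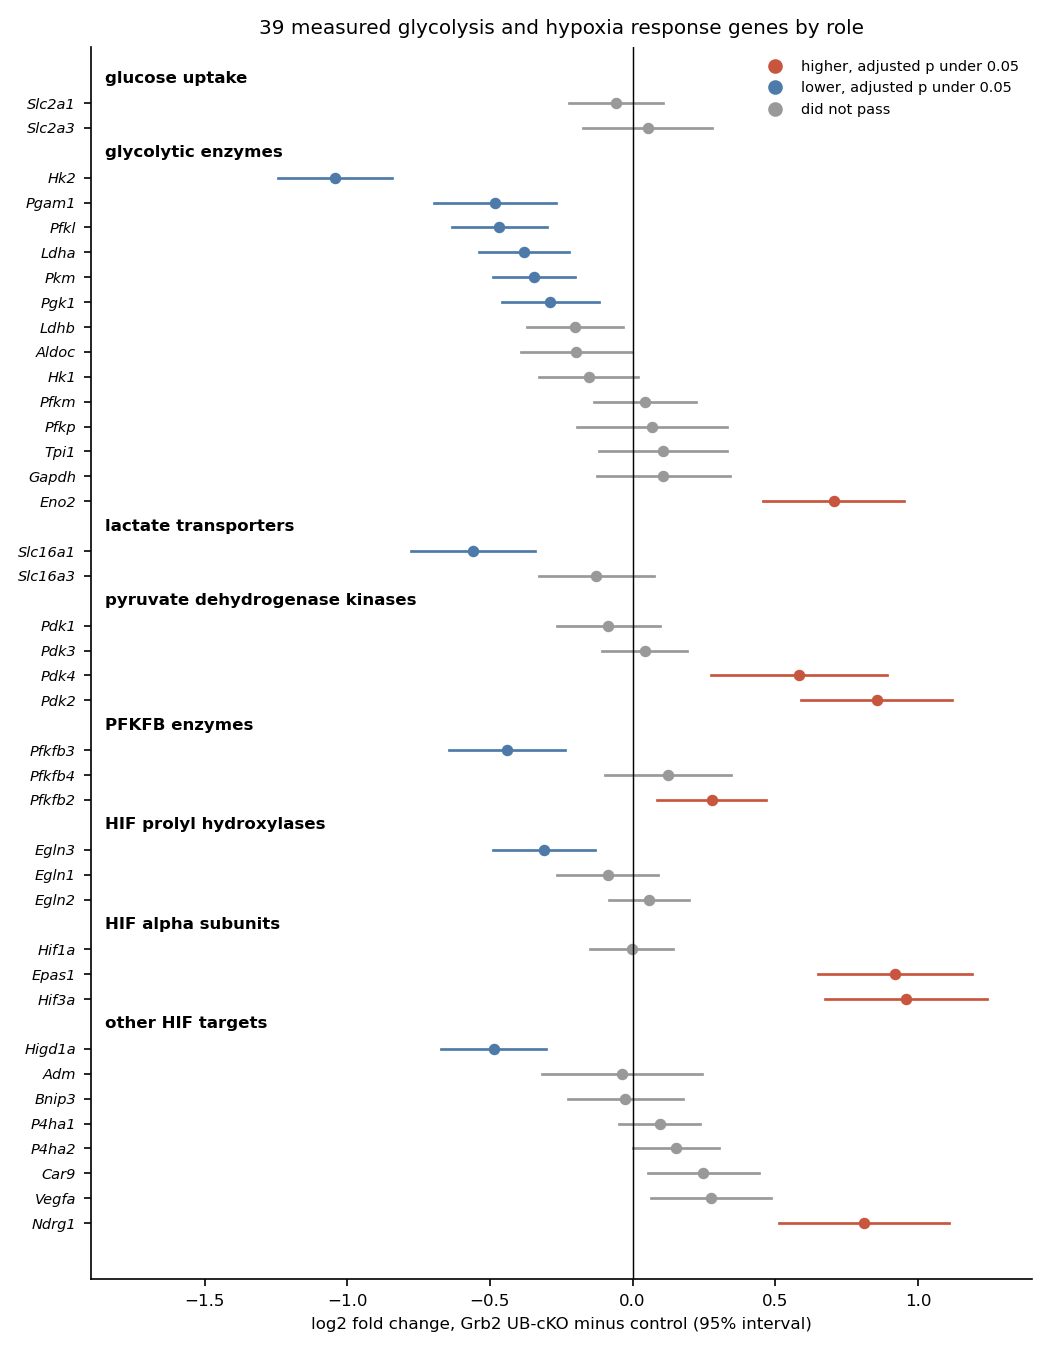
Log2 fold changes (Grb2 UB-cKO minus control, horizontal axis) of the 39 measured genes with their 95% intervals, grouped by role and ordered within each role; colours mark genes higher, lower or not past an adjusted p of 0.05 in limma. Hk2 stands farthest left at -1.04, and Hif3a and Epas1 farthest right at 0.96 and 0.92, while Hif1a lies next to 0.

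Glucose enters these cells through the facilitative transporters GLUT1, the product of Slc2a1, and GLUT3, the product of Slc2a3. Slc2a1 was 11.17, 11.26, 11.30 and 11.40 in the controls and 11.30, 11.15, 11.28 and 11.16 in Grb2 UB-cKO. These ranges overlapped, and the difference was -0.06 with a 95% interval of -0.22 to 0.11. A second, dimmer Slc2a1 probe set stood at 0.16 (SE 0.10, adjusted p = 0.363 in a limma fit over all probe sets). Slc2a3 stood at 0.05 (interval -0.17 to 0.28). Neither transporter passed in limma, and neither had an unadjusted p under 0.05.

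Of the 14 measured glycolytic enzymes, 6 fell, 1 rose and 7 did not pass, with a median log2 fold change of -0.20. That is 50% called, against 28.1% of all genes, of which 14.3% were lower and 13.7% higher. The 6 were Hk2, Pfkl, Pgk1, Pgam1, Pkm and Ldha, which act from the first to the last step of the pathway. Hk2, the inducible hexokinase that traps glucose in the cell, changed most. It was 8.34, 8.56, 8.49 and 8.67 in the controls and 7.63, 7.36, 7.45 and 7.45 in Grb2 UB-cKO. The highest knockout value lay well below the lowest control value. Hk2 thus fell 2.06-fold, to 48.5% of the control level (log2 fold change -1.04, SE 0.09, adjusted p = 8.02e-05). With the Y-linked covariate it stood at -1.01 (adjusted p = 0.0129).

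Pfkl, the liver-type phosphofructokinase, was 10.003, 10.05, 10.20 and 10.06 in the controls and 9.71, 9.67, 9.57 and 9.51 in Grb2 UB-cKO. All 4 knockout embryos lay below all controls, and the gene fell by 0.47 (SE 0.07, adjusted p = 0.00138). With the Y-linked covariate it was -0.59 (adjusted p = 0.026). Pkm, which encodes the pyruvate kinase of most embryonic cells, was 11.67 to 11.78 in the controls and 11.31 to 11.45 in Grb2 UB-cKO. It fell by 0.35 (SE 0.06, adjusted p = 0.00299). Ldha, the subunit of lactate dehydrogenase that favours lactate, was 9.33, 9.40, 9.31 and 9.29 in the controls and 9.02, 9.04, 8.89 and 8.84 in Grb2 UB-cKO. It fell by 0.38 (SE 0.07, adjusted p = 0.00294), with replicates 3 and 4 the lowest.

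Pgam1, the phosphoglycerate mutase, was 11.05, 10.84, 10.89 and 10.95 in the controls and 10.54, 10.65, 10.33 and 10.28 in Grb2 UB-cKO, and fell by 0.48 (SE 0.10, adjusted p = 0.0044). Probe set numbers on this array follow the genome (99.5% of genes neighbour a gene of their own chromosome), and this brighter Pgam1 probe set is numbered among genes of chromosome 3. The Pgam1 probe set numbered among genes of chromosome 19, where the gene lies, was 9.68 to 9.98 in the controls and 9.41 to 9.69 in Grb2 UB-cKO, ranges that just met. Put in place of the brighter one in the same model, it stood at -0.31 (SE 0.09) and passed (adjusted p = 0.0324), so the counts of 6 enzymes and 10 members did not change. In a fit over all probe sets of the array its adjusted p was 0.0637. Pgk1, the phosphoglycerate kinase on the X chromosome, was 12.05 to 12.13 in the controls and 11.67 to 11.96 in Grb2 UB-cKO, and fell by 0.29 (SE 0.08, adjusted p = 0.0174). Pkm, Ldha, Pgam1 and Pgk1 did not pass with the Y-linked covariate, at -0.40, -0.36, -0.44 and -0.27 (adjusted p = 0.0654, 0.12, 0.157 and 0.284). Of the 39 genes, 37 had the probe set used numbered among genes of their own chromosome. The other 2 were Pgam1 and Gapdh. Whether any probe set also reads related copies elsewhere was not tested.

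**Figure D2:**
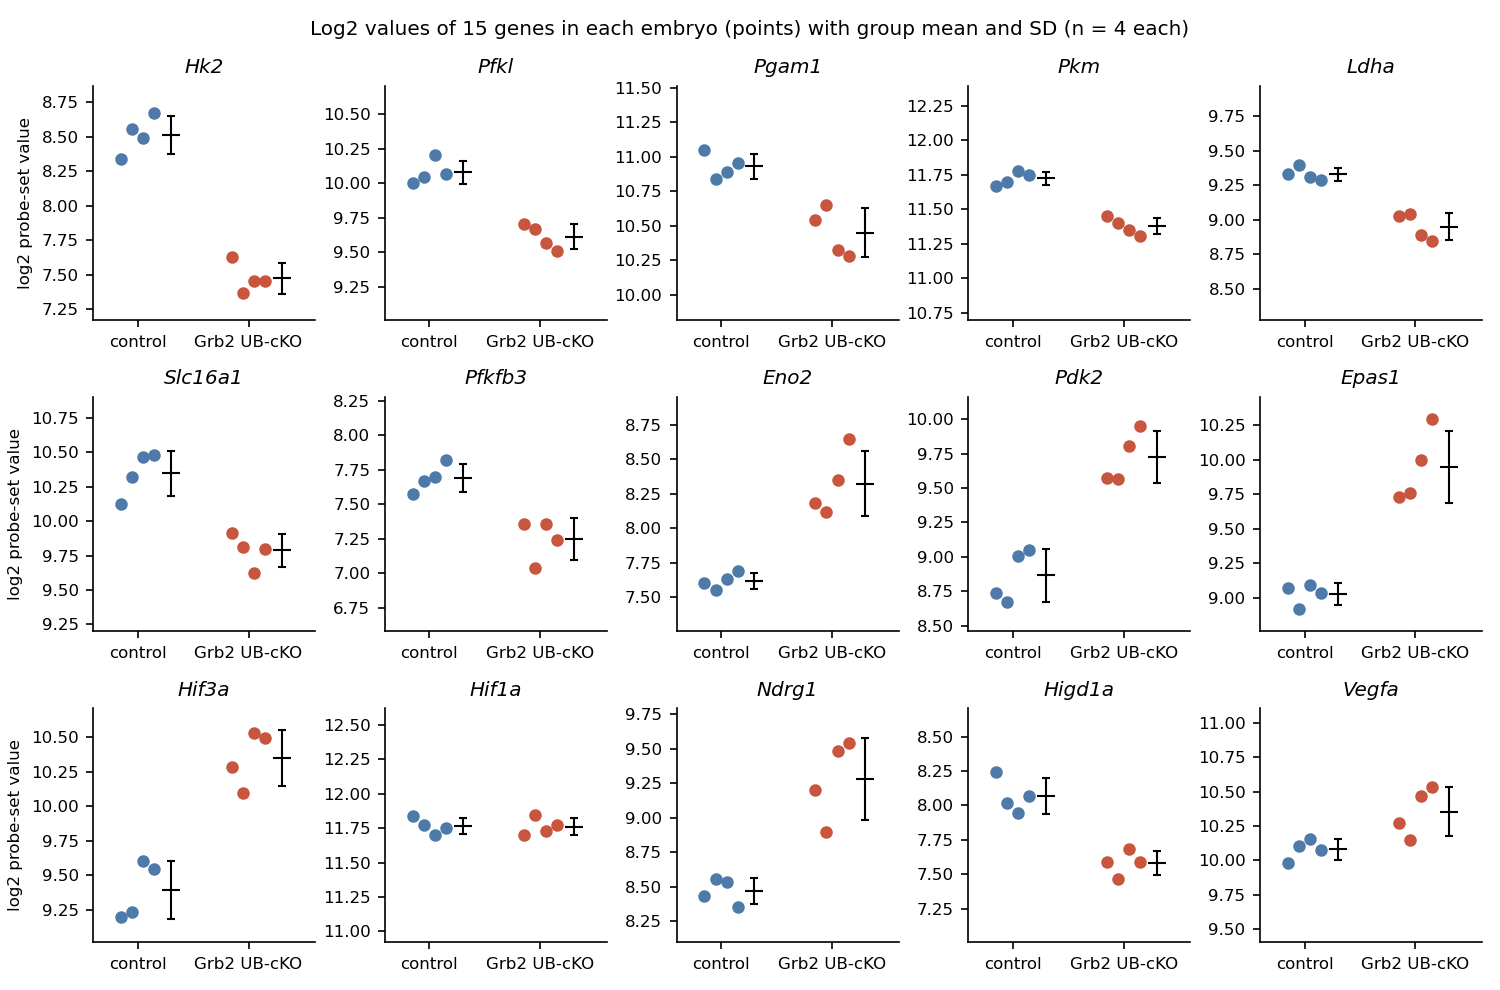
Log2 probe-set values (vertical axes, all spanning the same range of log2 units) of 15 genes in each control (blue) and Grb2 UB-cKO (red) embryo, in replicate order from left to right, with the group mean and SD (n = 4 each) as bars. The groups are apart for Hk2 and for Epas1, and overlap for Hif1a and Vegfa.

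The first and the third enzyme of the pathway exist as several gene products, and these did not move alike. Hk1, the housekeeping hexokinase, stood at -0.15 (interval -0.33 to 0.02, adjusted p = 0.179), and the fold changes of Hk1 and Hk2 differed by 0.89 (interval 0.56 to 1.22). Pfkm and Pfkp, the muscle and platelet types of phosphofructokinase, stood at 0.04 and 0.07 (adjusted p = 0.756 and 0.731). Pfkl differed from Pfkm by -0.51 and from Pfkp by -0.54. Such differences between the products of one gene family were tested for all 23 pairs in 10 families, by an exact two-sided permutation test of the log ratio over the 70 assignments of embryos. These 3 pairs reached an exact p of 0.0286, the smallest the design allows (0.0469 after Benjamini-Hochberg adjustment over the 23 pairs), as did 11 others. Ldhb, the lactate dehydrogenase subunit of oxidative tissues, stood at -0.20 (adjusted p = 0.0761), and its difference from Ldha was -0.18 (exact p = 0.0857).

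Eno2, an enolase best known from neurons, was the 1 of the 14 enzymes that rose. It was 7.60, 7.55, 7.64 and 7.69 in the controls and 8.18, 8.12, 8.35 and 8.65 in Grb2 UB-cKO (log2 fold change 0.70, SE 0.11, adjusted p = 0.0013). With the Y-linked covariate it stood at 0.68 (adjusted p = 0.0698). Eno3, a brighter enolase gene outside the 39, went the other way. It fell by 0.71 (SE 0.12, limma adjusted p = 0.00232), and with the Y-linked covariate by 0.89 (adjusted p = 0.0377). Of 7 measured neuron and glia markers, 2 rose, Stmn2 by 2.48 and Snap25 by 1.02, and Elavl4 fell by 0.93. That is 42.9% called, against 28.1% of all genes. The mean of that list was 6.58 to 6.91 in the controls and 7.11 to 7.36 in Grb2 UB-cKO. Its part in the rise of Eno2 was not tested. Tpi1 and Gapdh, often taken as constant, stood at 0.11 each (adjusted p = 0.499 and 0.512). Both varied more among the controls (SD 0.21 and 0.22) than among the Grb2 UB-cKO embryos (SD 0.02 and 0.03). The Gapdh value comes from a probe set numbered among genes of chromosome 11. The other Gapdh probe sets are numbered among genes of chromosomes 5 and Y, so none is numbered on its own chromosome 6. Aldoc, the brain-type aldolase, stood at -0.20 (adjusted p = 0.127).

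HIF binds DNA at a short core, ACGTG or GCGTG, within the hypoxia response element. The palindrome CACGTG, which contains ACGTG on both strands, is also the E-box read by MYC and related factors. The 250 bases before each RefSeq start site (GRCm38.p6) were searched for ACGTG and GCGTG on both strands. RefSeq starts were found for 36 of the 39 genes, with no entry for Slc2a3, Epas1 and Ndrg1. ACGTG was present before at least 1 start of 22 of these 36 genes (61.1%), against 20.4% of the 16990 measured genes with a start in the table. It was present in 8 of the 10 lower genes, against 25.8% of all lower genes with a start. It was present in 2 of 5 higher genes, against 19.2% of all higher genes with a start. Among the members that did not pass it was present in 12 of 21. GCGTG was present before 26 of the 36 genes (72.2%), against 37.2% of the measured genes with a start. It was found in 6 of the 10 lower genes (52.2% of all lower genes) and 3 of 5 higher genes (41.5% of all higher genes). Among the members that did not pass, 17 of 21 had it. Many of the 39 genes are on the list because they are known HIF targets, and base composition was not matched. The stretches below show the ACGTG nearest to a start, for 5 of the 6 enzymes that fell. It is in capitals, with up to 25 bases on either side, on the gene's own strand. Pfkl had no ACGTG in this window, and had GCGTG at 1 position.
Hk2, 52 bases before its start, minus strand, chr6:82774477-82774531: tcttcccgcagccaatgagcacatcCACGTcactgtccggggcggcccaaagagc
Pgk1, 131 bases before its start, plus strand, chrX:106186944-106186998: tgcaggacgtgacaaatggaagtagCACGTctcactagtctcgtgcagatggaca
Pgam1, 114 bases before its start, plus strand, chr19:41911732-41911786: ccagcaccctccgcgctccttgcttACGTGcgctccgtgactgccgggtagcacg
Pkm, 75 bases before its start, plus strand, chr9:59657127-59657181: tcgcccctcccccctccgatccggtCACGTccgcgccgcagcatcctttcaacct
Ldha, 34 bases before its start, plus strand, chr7:46845745-46845799: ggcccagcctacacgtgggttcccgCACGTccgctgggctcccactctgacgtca

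ACGTG is written CACGT where it lies on the other strand. The palindrome CACGTG was present before 8 of the 36 genes (22.2%), against 7.83% of the measured genes with a start. It was found before Ldha and 4 further called genes, and also before Pfkm, Hif1a and Bnip3, which did not pass. It is shown because the same letters accompany a fall in Slc16a1 and Pfkfb3 and a rise in Pdk2 and Pfkfb2. A match is a description of the sequence and does not show that a factor binds there.
Slc16a1, lower, 200 bases before its start, plus strand, chr3:104638439-104638494: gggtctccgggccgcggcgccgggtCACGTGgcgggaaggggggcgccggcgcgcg
Pfkfb3, lower, 53 bases before its start, minus strand, chr2:11502113-11502168: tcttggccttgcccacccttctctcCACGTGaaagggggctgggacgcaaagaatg
Pdk2, higher, 126 bases before its start, minus strand, chr11:95041467-95041522: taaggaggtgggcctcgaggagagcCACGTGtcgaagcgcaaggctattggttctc
Pfkfb2, higher, 22 bases before its start, minus strand, chr1:130715822-130715868: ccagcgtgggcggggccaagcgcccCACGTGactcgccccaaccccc

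Lactate and pyruvate cross the cell membrane through MCT1, the product of Slc16a1, and MCT4, the product of Slc16a3. Slc16a1 was 10.13, 10.32, 10.46 and 10.48 in the controls and 9.91, 9.81, 9.62 and 9.80 in Grb2 UB-cKO. It fell by 0.56 (SE 0.10, adjusted p = 0.00219), and with the Y-linked covariate it was -0.68 (adjusted p = 0.0409). Slc16a3, the transporter known as a HIF target, was 7.92 to 8.23 in the controls and 7.75 to 7.99 in Grb2 UB-cKO (-0.13, adjusted p = 0.351). The difference between the 2 transporters was -0.43 (interval -0.66 to -0.21, exact permutation p = 0.0286, 0.0469 over the 23 pairs).

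The bifunctional PFKFB enzymes make and remove fructose 2,6-bisphosphate, the strongest activator of phosphofructokinase. Pfkfb3, the isoform with the highest kinase activity, was 7.57, 7.67, 7.70 and 7.82 in the controls and 7.36, 7.04, 7.36 and 7.24 in Grb2 UB-cKO. It fell by 0.44 (SE 0.09, adjusted p = 0.00531), and with the Y-linked covariate it was -0.45 (adjusted p = 0.133). Pfkfb2, the heart isoform, was 8.08, 8.11, 7.84 and 7.85 in the controls and 8.15, 8.23, 8.28 and 8.32 in Grb2 UB-cKO. Control replicates 1 and 2 came close to the knockout range. Pfkfb2 rose by 0.28 (SE 0.09, adjusted p = 0.0352). It did not pass without control replicate 3 or 4, nor without Grb2 UB-cKO replicate 2, 3 or 4 (adjusted p = 0.095, 0.087, 0.0591, 0.0852 and 0.082), nor with the Y-linked covariate (0.41, adjusted p = 0.112). The fold changes of the 2 isoforms differed by 0.72 (interval 0.36 to 1.07, exact permutation p = 0.0286, 0.0469 over the 23 pairs). Pfkfb4 stood at 0.12 (adjusted p = 0.412).

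Pyruvate dehydrogenase kinases switch off the complex that sends pyruvate into the mitochondrial cycle. Of the 4 kinase genes, 2 rose and 2 did not pass (50% called, against 28.1% of all genes). Pdk2 was 8.74, 8.67, 9.01 and 9.05 in the controls and 9.57, 9.57, 9.80 and 9.95 in Grb2 UB-cKO. It rose 1.81-fold (log2 fold change 0.86, SE 0.12, adjusted p = 0.000684), and with the Y-linked covariate it was 0.71 (adjusted p = 0.066). Pdk4, the kinase known to rise in fasting, was 7.09, 7.10, 7.52 and 7.32 in the controls and 7.64, 7.70, 7.81 and 8.20 in Grb2 UB-cKO. It rose by 0.58 (SE 0.14, adjusted p = 0.0103). With the Y-linked covariate it stood at 0.31 (adjusted p = 0.439), and control replicate 3 was the highest control.

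Pdk1, the kinase best known as a HIF-1 target, was 8.28, 8.31, 8.08 and 8.07 in the controls and 8.001 to 8.15 in Grb2 UB-cKO (-0.08, interval -0.26 to 0.09). A second, far dimmer Pdk1 probe set (mean log2 value 3.30) stood at 0.23 (SE 0.10, adjusted p = 0.177 in a limma fit over all probe sets). Pdk3 on the X chromosome stood at 0.04 (adjusted p = 0.706). The fold change of Pdk1 minus that of Pdk2 was -0.94, and that of Pdk2 minus Pdk3 was 0.81, each with an exact permutation p of 0.0286 (0.0469 over the 23 pairs). The genes of the complex that these kinases act on went down: Pdha1, its X-linked catalytic subunit, fell by 0.58 (SE 0.08, adjusted p = 0.000566) and Pdhb by 0.42 (SE 0.07). Dlat, Pdhx and Dld, named after their values were seen, fell by 0.33, 0.34 and 0.48. Of the phosphatases that switch the complex on, Pdp2 fell by 0.43 (SE 0.06) and Pdp1, also named after its values were seen, rose by 0.52. None of the 5 subunit genes passed with the Y-linked covariate (Pdha1 at -0.51, adjusted p = 0.0555).

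These subunits belong to a list of 16 measured genes of pyruvate entry and further glycolytic steps, of which 11 fell, 2 rose and 3 did not pass (median -0.32). That is 81.2% called, against 28.1% of all genes. Hkdc1, a hexokinase-like gene, fell by 0.83 (SE 0.09, adjusted p = 0.000264). Of 6 measured genes of the pentose phosphate pathway, which branches from glycolysis, 1 fell, Rpe by 0.42, and 1 rose, H6pd by 0.36. That share of 33.3% called lay near the 28.1% of all genes. Of 7 genes of glucose synthesis, 1 rose, Pck2 by 0.35, and none fell in limma, nor did any have a negative fold change at an unadjusted p under 0.05. The share called there, 14.3%, was below that of all genes, 28.1%.

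The 3 HIF alpha subunits did not move alike. Hif1a was 11.84, 11.77, 11.70 and 11.75 in the controls and 11.70, 11.84, 11.73 and 11.77 in Grb2 UB-cKO. The ranges coincided, and the 95% interval of the difference ran from -0.15 to 0.14. Epas1 was 9.07, 8.92, 9.09 and 9.04 in the controls and 9.73, 9.76, 9.996 and 10.30 in Grb2 UB-cKO. The groups were far apart, and replicates 3 and 4 were the highest. Epas1 rose 1.89-fold (0.92, SE 0.12, adjusted p = 0.000524), and with the Y-linked covariate it stood at 0.85 (adjusted p = 0.0455).

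Hif3a, whose product can act as an inhibitor of the other factors, was 9.20, 9.23, 9.60 and 9.55 in the controls and 10.29, 10.09, 10.53 and 10.50 in Grb2 UB-cKO. It rose 1.94-fold (0.96, SE 0.13, adjusted p = 0.000542), and with the Y-linked covariate it was 0.75 (adjusted p = 0.0592). The fold change of Hif1a minus that of Epas1 was -0.92 and minus that of Hif3a was -0.96 (exact permutation p = 0.0286 each, 0.0469 over the 23 pairs). Epas1 and Hif3a differed by -0.04 (interval -0.34 to 0.27).

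Markers of several other cell types moved with Epas1 and Hif3a. Macrophage markers (9 of 12 rose) and erythroid markers (6 of 8 rose) were among them, with list means given further below. For comparison, 13.7% of all genes were called higher. Of 12 endothelial markers, 8 rose and 4 did not pass, Robo4 among the former at 0.85, and the list mean was 9.61 to 9.73 in the controls and 9.88 to 10.2 in Grb2 UB-cKO. All 10 stromal markers rose (list mean 10.4 to 10.6 against 11.1 to 11.3). Of 7 podocyte markers, 6 rose, among them Thsd7a by 1.11 (list mean 8.97 to 9.07 against 9.44 to 10.005). The podocyte and endothelial means were higher in Grb2 UB-cKO replicates 3 and 4 than in 1 and 2, as Epas1, Pdk2, Eno2, Ndrg1 and Vegfa were. The mean of 9 proximal tubule markers showed the same split, at 8.16 and 8.05 in replicates 3 and 4, 7.44 and 7.36 in 1 and 2, and 7.17 to 7.56 in the controls; 1 of the 9 rose, Spp2 by 0.27. The macrophage mean was also higher in replicates 3 and 4 (8.21 and 8.39) than in 1 and 2 (7.996 and 7.98). The nephron progenitor mean was lower in 3 and 4 (9.02 and 9.05) than in 1 and 2 (9.52 each). So was the proliferation mean (10.63 and 10.57 against 10.75 and 10.78). The split was thus not particular to podocyte or endothelial markers. The share of any of these cell types in the rise of Epas1 and Hif3a was not tested.

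The prolyl hydroxylases that mark HIF alpha subunits are themselves partly under HIF control. Egln3, the most inducible of them, was 10.19, 10.18, 9.9996 and 9.99 in the controls and 9.83, 9.87, 9.65 and 9.78 in Grb2 UB-cKO. It fell by 0.31 (SE 0.08, adjusted p = 0.016). It did not pass without control replicate 2 (-0.28, adjusted p = 0.0529), nor with the Y-linked covariate (-0.22, adjusted p = 0.395). Egln1, the main oxygen sensor, stood at -0.09 (interval -0.27 to 0.09), and Egln2 at 0.06 (interval -0.08 to 0.20). Egln3 and Egln2 differed by 0.37 (exact permutation p = 0.0286, 0.0469 over the 23 pairs), while for Egln3 and Egln1 the interval of the difference reached from -0.09 to 0.53 (exact p = 0.143).

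Among 11 measured partners and turnover factors of HIF, 3 rose and 3 fell (54.5% called, against 28.1% of all genes). Arnt2, a partner of the alpha subunits, rose by 0.43 (SE 0.09). Arnt and Ep300, named after their values were seen, rose by 0.18 (SE 0.06, limma adjusted p = 0.0448) and 0.30 (SE 0.07). Cul2 and Eloc, parts of the ligase that removes hydroxylated HIF, fell by 0.44 (SE 0.07) and 0.46 (SE 0.08), and Hif1an, which blocks HIF's contact with coactivators, fell by 0.31 (SE 0.07). Arnt2, Cul2, Eloc and Hif1an did not pass with the Y-linked covariate (adjusted p = 0.113, 0.106, 0.087 and 0.108). Nor did Arnt and Ep300 (adjusted p = 0.272 and 0.285).

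The other HIF targets, genes outside the glycolytic route, gave no common direction. Of the 8 measured, 1 rose, 1 fell and 6 did not pass, a share of 25% against 28.1% of all genes, with a median of 0.12. Ndrg1, a gene induced by hypoxia and in differentiating cells, was 8.43, 8.55, 8.53 and 8.35 in the controls and 9.20, 8.89, 9.48 and 9.54 in Grb2 UB-cKO. It rose 1.75-fold (0.81, SE 0.13, adjusted p = 0.00163), and with the Y-linked covariate it was 0.75 (adjusted p = 0.0892). A second, dimmer Ndrg1 probe set stood at 0.12 (SE 0.08). Higd1a, a mitochondrial protein gene, was 8.24, 8.02, 7.94 and 8.07 in the controls and 7.59, 7.47, 7.68 and 7.59 in Grb2 UB-cKO. It fell by 0.49 (SE 0.08, adjusted p = 0.0019), and with the Y-linked covariate it was -0.35 (adjusted p = 0.153).

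Vegfa, the main growth factor for vessels, was 9.98, 10.11, 10.16 and 10.07 in the controls and 10.27, 10.15, 10.47 and 10.53 in Grb2 UB-cKO. Replicate 2 of Grb2 UB-cKO lay within the control range, and the difference of 0.27 just missed the threshold (SE 0.09, adjusted p = 0.0539). Over all alternatives its adjusted p ran from 0.018, without that embryo, to 0.554, with the Y-linked covariate. Car9, the carbonic anhydrase used as a mark of hypoxic tissue, stood at 0.25 (SE 0.09, adjusted p = 0.0575). Without control replicate 1 it passed (0.30, adjusted p = 0.0309), and over all alternatives its adjusted p ran from 0.029 to 0.774.

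Bnip3, a mitophagy receptor gene, Adm, which encodes the vasodilator adrenomedullin, and P4ha1 and P4ha2, which encode collagen prolyl hydroxylases, stood at -0.03, -0.04, 0.09 and 0.15 (adjusted p = 0.879, 0.869, 0.317 and 0.13). Their 95% intervals were -0.23 to 0.18, -0.32 to 0.24, -0.05 to 0.24 and 0.00062 to 0.30. Adm was among the dim genes of the array, at 5.41 to 6.02. Of 8 receptor genes for VEGF and adrenomedullin, Nrp2 rose by 0.39 (SE 0.11) and Kdr, itself an endothelial marker, by 0.22 (SE 0.07), while 6 did not pass, a share of 25% called against 28.1% of all genes. Of 29 further HIF targets, 10 rose, 7 fell and 12 did not pass (58.6% called against 28.1% of all genes, median 0.17). Angptl4, Plod2 and Hmox1 rose by 1.15 (SE 0.12), 0.73 (SE 0.07) and 1.02 (SE 0.10). Tfrc, the transferrin receptor gene of dividing and erythroid cells, fell by 0.91 (SE 0.09), and the chemokine receptor gene Cxcr4 fell by 1.01 (SE 0.10). Fam162a, named after its values were seen, fell by 0.65 (SE 0.07). Of the 29, only Angptl4, Plod2, Hmox1, Tfrc, Cxcr4 and Fam162a passed with the Y-linked covariate, 3 higher and 3 lower.

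Set side by side, the mean of the glycolytic enzymes lay below the control level in every knockout embryo, while that of the other HIF targets depended on Ndrg1. Averaged over the 14 enzymes, the Grb2 UB-cKO embryos lay 0.14, 0.21, 0.16 and 0.21 below the control mean, and the controls lay within 0.04 of it. Averaged over the 8 other targets, they lay 0.12, 0.05, 0.16 and 0.19 above it, which came up to the controls at -0.05 to 0.06. Without Ndrg1 the other 7 lay at 0.0012 to 0.059 in Grb2 UB-cKO, within reach of the controls at -0.07 to 0.058, and their mean log2 fold change was 0.032. The enzyme mean includes Hk2 at -1.04 and was not recomputed without it, so the 2 lists were not treated alike. The enzyme median was -0.20. The enzyme mean minus the target mean was -0.39 to -0.26 in Grb2 UB-cKO and -0.03 to 0.04 in the controls. These are descriptions with no test, since the genes were chosen with results known. They depend on which genes count as targets: with Slc2a1, Slc16a3, Pdk1, Pfkfb3, Pfkfb4, Egln1 and Egln3 added, 1 of 15 rose and 3 fell, and the median was -0.038.

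**Figure D3:**
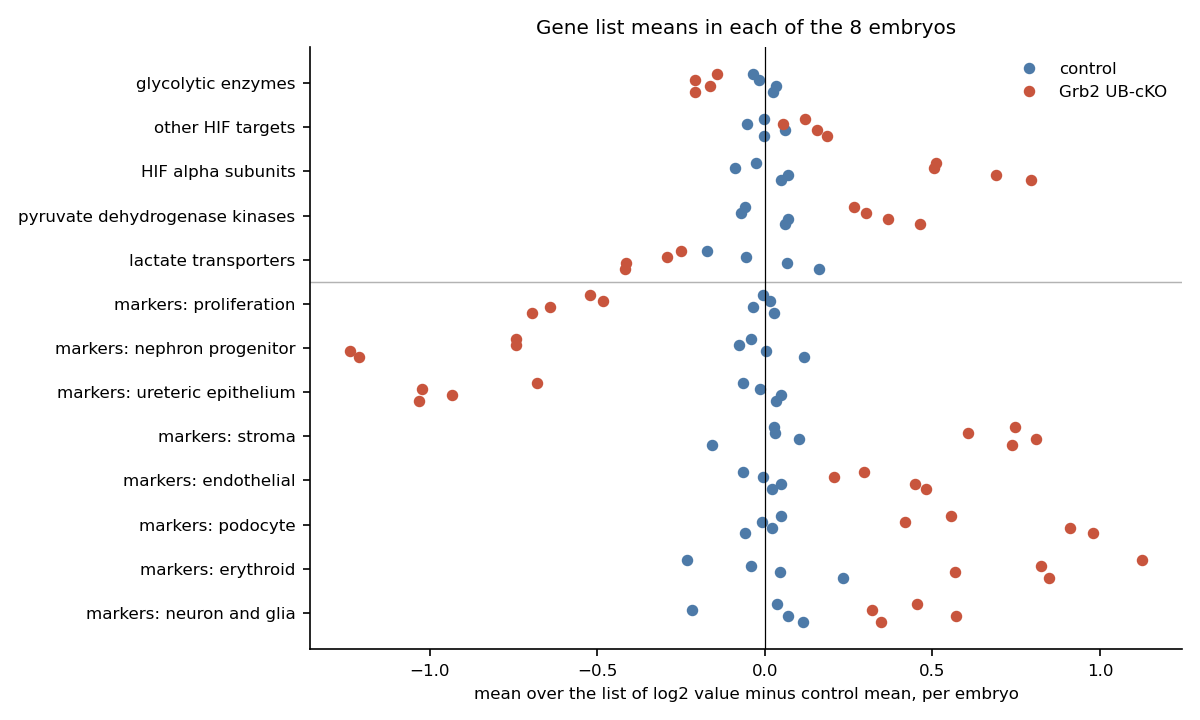
Mean over each gene list of the log2 value minus the gene's control mean (horizontal axis), 1 point per embryo, for 5 groups of the pathway above the line and 8 lists of cell type or proliferation markers below it. Glycolytic enzymes lie at -0.21 to -0.14 in Grb2 UB-cKO and other HIF targets at 0.05 to 0.19, while proliferation markers lie at -0.69 to -0.48.

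Markers of dividing cells and of 2 cell populations moved with the glycolytic enzymes. For comparison, 14.3% of all genes were called lower and 13.7% higher. All 11 measured proliferation markers fell, among them Rrm2 at -0.84, and their mean was 11.2 to 11.3 in the controls and 10.6 to 10.8 in Grb2 UB-cKO. Of 10 nephron progenitor markers, 8 fell, among them Gdnf at -1.73, with means of 10.2 to 10.4 against 9.02 to 9.52. Of 11 ureteric epithelium markers, 8 fell, among them Ret at -2.46, with means of 9.04 to 9.15 against 8.07 to 8.42. The part of these cells in the lower enzyme values was not tested. Of 8 erythroid markers, 6 rose and 2 did not pass, with means of 6.35 to 6.82 in the controls and 7.15 to 7.71 in Grb2 UB-cKO. With the erythroid mean as a covariate, 0.532% of all genes passed, and of the 17 called genes Hk2 at -1.43 and Slc16a1 at -1.09 did (adjusted p = 0.028 and 0.04). The erythroid mean itself did not overlap between the groups, so this model can hardly tell it from genotype. A call lost there does not mean a smaller difference. Of 12 macrophage markers 9 rose, with means of 7.21 to 7.39 against 7.98 to 8.39.

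With the Y-linked mean in the model, 4 of the 17 called genes passed, namely Hk2, Pfkl, Slc16a1 and Epas1, and all 17 kept their sign. The covariate widened the errors as well as moving the values, so a lost call alone does not mean a smaller difference. Of the genes that lost their call, however, all but Pkm, Pfkfb2 and Pfkfb3 had a smaller absolute fold change with the covariate. Hif3a went from 0.96 to 0.75, Pdk2 from 0.86 to 0.71, Higd1a from -0.49 to -0.35 and Egln3 from -0.31 to -0.22. Pfkfb2 went from 0.28 to 0.41. The largest drop among the called genes was that of Pdk4, from 0.58 to 0.31. For the autosomal genes the calls were the same when genes on X and Y were left out.

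**Figure D4:**
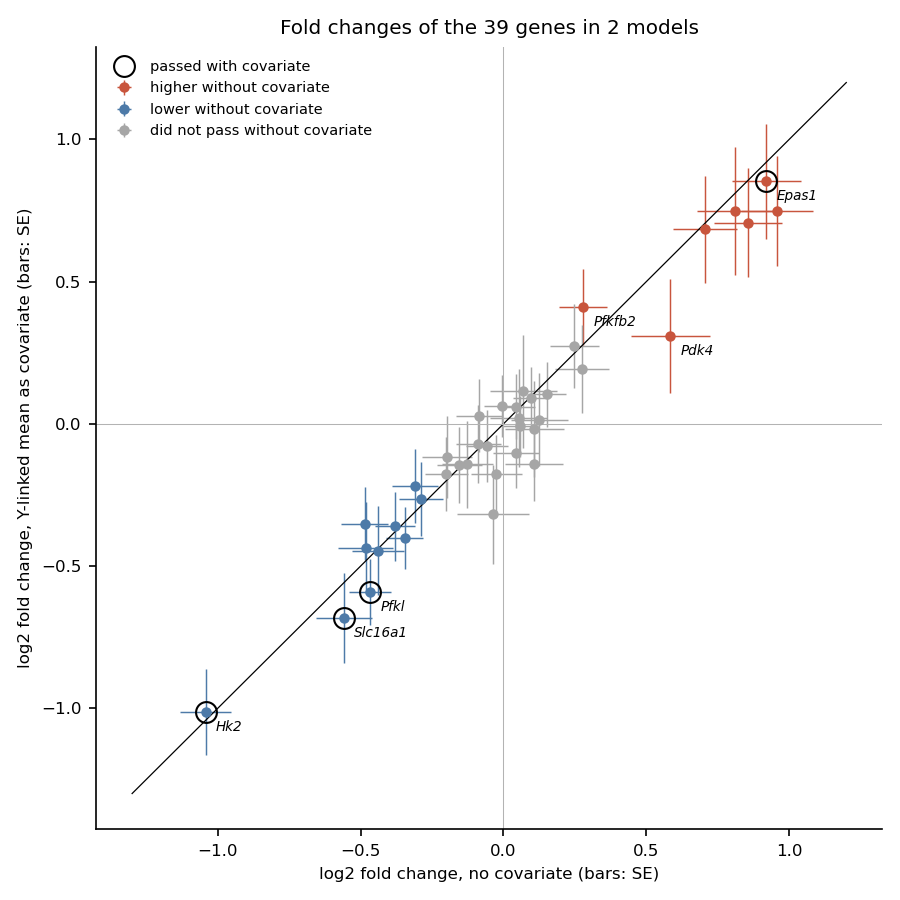
Log2 fold changes of the 39 genes in the model without covariate (horizontal axis) and with the Y-linked mean added as a covariate (vertical axis), with SE as bars and a line where both are equal; circles mark the 4 genes past an adjusted p of 0.05 with the covariate. Hk2, Slc16a1, Pfkl and Epas1 are circled, and Pdk4 lies farthest from the line among the called genes.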

How the data were processed

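The deposited table holds log2 probe-set values of 41345 probe sets on 8 arrays; per the submitters' processing notes, the authors used the Transcriptome Analysis Console. Neither the labels nor these notes name the background correction or the normalization. That the values are log2 was read from their range, 1.25 to 14.08. Per the labels' protocols, 200 ng of total RNA per embryo was amplified. Probe sets with 1 gene symbol (23521, of which 23328 were updated through the GRCm38.p6 RefSeq table) were kept, and each gene was represented by its brightest probe set, by the mean of 8 arrays, leaving 22180. The groups were compared in limma 3.58.1 (R 4.3.3) with no covariate, and p-values were adjusted by Benjamini-Hochberg over all genes. Replicate numbers follow the order of the records and pair nothing. The members, lists and alternatives were chosen with earlier results of these data known. All members are named, with up to 4 genes of smallest p per pathway list and up to 2 per marker list. Angptl4, Fam162a, Arnt, Ep300, Elavl4, Eno3, Dlat, Pdhx, Dld and Pdp1 were named outside this rule, with their values known. On simulated data for 22180 genes, of which 200 were changed, the model recovered 54.2% of log2 changes of 0.5 and 91.8% of those of 1. It made 7.95 false calls per draw. Far more genes (6227) were called in the real comparison, so these rates need not hold there. Alternatives were quantile normalization, median centring, a filter on the dimmest 25%, the mean of probe sets, trended and robust variance, array weights, a threshold of 0.01, the Y-linked or erythroid mean as a covariate, a wider target list and leaving out each embryo. Leaving out genes on X and Y, the second Pgam1 probe set and the targets without Ndrg1 were added after seeing the data.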

Additional observations from a re-analysis of the deposited data

How the results depend on the processing

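The 17 called members kept their direction under every alternative run, and all 17 passed with quantile normalization, centring, the filter on dim genes, the mean of probe sets, trended and robust variance and array weights. The count of other HIF targets that rose was 1, and 2 with quantile normalization or the mean of probe sets, 3 without the dimmest genes, with trended and robust variance or with array weights, and 1 to 2 on leaving out each embryo. With the Y-linked covariate 1246 genes passed in all; 1 member rose and 3 fell, 2 enzymes fell and 0 rose, 0 other targets rose or fell, the enzyme median was -0.16, and Grb2 stood at -0.40 (adjusted p = 0.10). At an unadjusted p under 0.05 in limma, 1 enzyme rose and 5 fell with it, and 1 other target rose and 1 fell. With the erythroid covariate 118 genes passed; 0 members rose and 2 fell, 1 enzyme fell and 0 rose, 0 other targets rose or fell, and Grb2 stood at -0.55 (adjusted p = 0.193). At an unadjusted p under 0.05, 6 members rose and 7 fell with it, of the enzymes 1 and 5, and of the other targets 1 and 0. At an adjusted p under 0.01, 3809 genes and 13 of the 17 members passed (not Pgk1, Pdk4, Pfkfb2 and Egln3). With the wider list of targets, 3 fell and the median was -0.038, by construction. The enzyme median was -0.24 to -0.17 on leaving out each embryo. No paired analysis was possible because the labels give no replicate numbers shared by the groups. Of 80 groups of 4 values, none had an embryo standing apart by Dixon's test. Dim genes such as Adm limit what a small change can show, since no detection calls were used here.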
